A study of Rattus norvegicus with 10 samples.

Results

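The genes described here are 10 markers of the macrophages of the lung: Lyz2, Cd68, Csf1r, Mrc1, Marco, Pparg, Fabp4, Chi3l1, Gpnmb and Trem2. They were taken by symbol from the deposited table, which held 22250 genes, and all 10 had a row. Of the 10, 9 had enough counts to be tested among 14320 genes, and Marco did not. Messenger RNA of rat lung was sequenced in 10 libraries, of which 5 carry the name MOD and 5 the name XBS, with 11998979 to 15518929 counts per library. The design text describes a rat model of neutrophilic asthma made with ovalbumin, the allergen of egg white, and lipopolysaccharide, from the outer membrane of bacteria, and a treatment abbreviated SP, the Shuangpi Formula of the series title. Neither MOD nor XBS is spelled out or tied to SP in the labels, which give no strain, sex, age, dose or time for either group, so the comparison is XBS against MOD. The labels name lung tissue and also 16HBE, a human bronchial epithelial line, while the gene identifiers are those of rat and markers of alveolar, endothelial and blood cells were all present. Whether each library is its own animal is not stated, so the p-values cover library-to-library spread only, and part of that may be technical.

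The healthy lung holds several kinds of macrophage. Alveolar macrophages live in the air spaces, where they take up surfactant lipid and inhaled particles; they depend on the cytokine GM-CSF and on PPARG, a lipid-sensing nuclear receptor. Interstitial macrophages lie in the tissue around airways and vessels, depend more on CSF1 and its receptor, and are close to blood monocytes. In injured or lipid-loaded tissue, macrophages can switch on a lipid-handling programme marked by TREM2 and GPNMB. In whole tissue, fewer cells of a type and less RNA per cell cannot be told apart, so every value below is a level in the tissue.

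No member passed an adjusted p of 0.05 between the groups by edgeR, where 0.0768% of all genes tested did. There were 0 rises and 0 falls among the 9 that were tested. None had an unadjusted p under 0.05 by edgeR, a level that 13.2% of all genes reached. By DESeq2 0 of the 9 passed and 0 had an unadjusted p under 0.05 (all genes, 2.22% and 11.5%). By limma voom with sample weights 0 passed and 2, Trem2 and Cd68, had an unadjusted p under 0.05 (all genes, 0.468% and 17.7%). All 9 fitted fold changes were positive, from 1.01-fold for Pparg to 1.70-fold for Trem2, as were 51.9% of those of all genes. That count leaned on 1 library: without XBS 3, 5 of the 9 were positive. Without XBS 2 and XBS 3, 6 were. The median log2 fold change was 0.19 for the members and 0.01 for all genes tested. With the replicate number as a block 0 passed and 2, Trem2 and Chi3l1, had an unadjusted p under 0.05 (all genes, 0.00698% and 14.5%). The groups overlapped for each of the 9. Among all genes tested, every XBS library was above every MOD library for 1.61% and below for 1.13%, so overlap was usual. The highest libraries came from both groups, mostly MOD 5 and XBS 3.

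**Figure D1:**
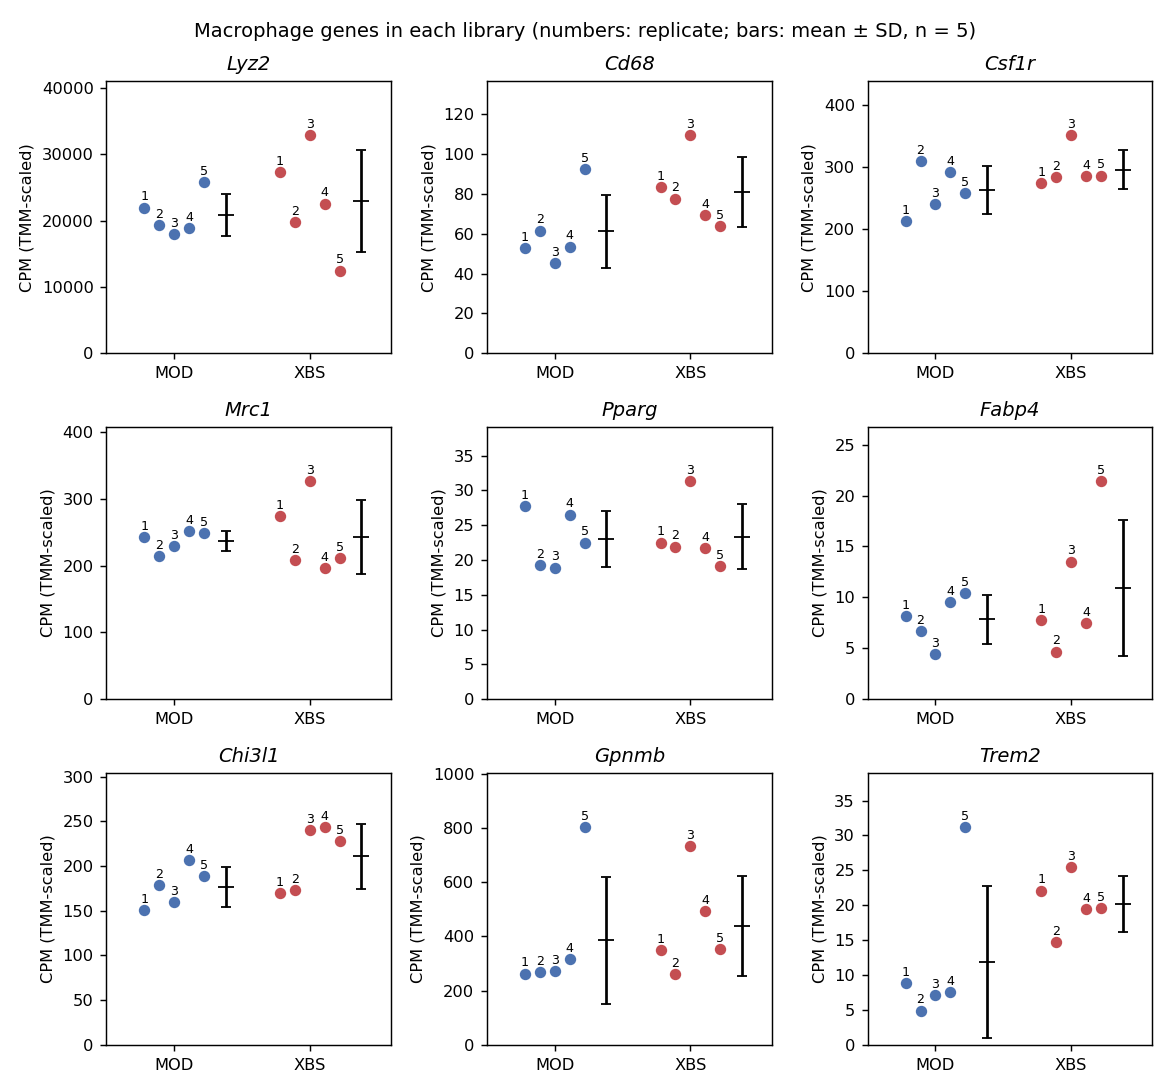
Normalised read counts (CPM, scaled by the trimmed mean of M-values, linear axes from 0) of the 9 tested genes in each of the 5 MOD and 5 XBS libraries, with the replicate number above each point and the mean ± SD as a bar. MOD 5 lies far above the other MOD libraries for Gpnmb (803 CPM) and Trem2 (31.2 CPM), and XBS 3 is the highest XBS library for all but Chi3l1 and Fabp4.

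Levels of different genes were compared per length, as FPKM (fragments scaled to gene length and library total). Lyz2, which encodes lysozyme, the enzyme that cuts bacterial cell walls, stood far above the rest, at 17307 ± 2545 FPKM in MOD and 19367 ± 6116 FPKM in XBS (SD, n = 5). It had the most counts of any gene in all 10 libraries, 1.28% to 3.18% of each library. Gpnmb came next at 165 ± 98.4 and 190.2 ± 75.3 FPKM, then Chi3l1 at 95.7 ± 11.4 and 116 ± 19.7 FPKM (SD, n = 5, MOD and XBS). Csf1r, Cd68 and Mrc1 formed a middle group with MOD means of 65.3, 48.7 and 44.9 FPKM. Fabp4, Trem2 and Pparg were low, with MOD means of 11.6, 10.2 and 9.92 FPKM. Gpnmb exceeded Chi3l1, and Chi3l1 exceeded Csf1r, in all 10 libraries, although their ranges over the libraries overlapped. The order of Csf1r over Cd68 held in 8 libraries and that of Cd68 over Mrc1 in 7. Fabp4 and Trem2 could not be ordered, since Fabp4 was the higher in 5 of 10, and Trem2 exceeded Pparg in 6. The row of Marco, at 0 to 3 counts per library, was not ranked.

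Lyz2 did not differ between the groups beyond their spread. Scaled to library total as CPM (TMM), it stood at 21958, 19387, 17978, 18865 and 25820.2 CPM in MOD 1 to MOD 5 and at 27287, 19732.5, 32842.5, 22580.5 and 12463.5 CPM in XBS 1 to XBS 5. The XBS libraries thus held both the highest value, XBS 3, and the lowest, XBS 5. The fold was 1.10 (log2 fold change 0.14 ± 0.23 SE; edgeR adjusted p = 0.81), and it turned to -0.02 on the log2 scale without XBS 3.

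The level of Lyz2 ran more closely with surfactant genes than with macrophage marker lists. In mouse and rat, lysozyme is also made by alveolar type 2 cells, the epithelial cells that secrete surfactant. The genes most like Lyz2 over the 10 libraries were Dram1 (Pearson r = 0.985, Spearman rho = 0.939), Cxcl17, a chemokine of mucosal tissue (r = 0.976, rho = 0.952), and Sftpa1, which encodes surfactant protein A1 (r = 0.971, rho = 0.976). Other surfactant protein genes followed Lyz2 less closely, Sftpc with r = 0.845 and Sftpb with r = 0.736, and the macrophage gene Mertk had r = 0.78. These are descriptions over libraries that share scaling and tissue make-up, with no test. Sftpa1 was at 5682 CPM in XBS 5 and 12143 CPM in XBS 3, its own extremes and those of Lyz2, with 7186 to 9552 CPM in the other 8 libraries. Against the mean level of 9 alveolar type 2 markers, Lyz2 had r = 0.954 (0.982 for deviations from the group means), against 0.692 for 18 alveolar macrophage markers and 0.165 for 18 interstitial macrophage markers. The summed level of the alveolar type 2 markers was 25137 to 32376.5 CPM in MOD and 16932 to 34176 CPM in XBS, and none of them was at 0 in every library. The part of alveolar type 2 cells in the Lyz2 level was not tested.

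**Figure D2:**
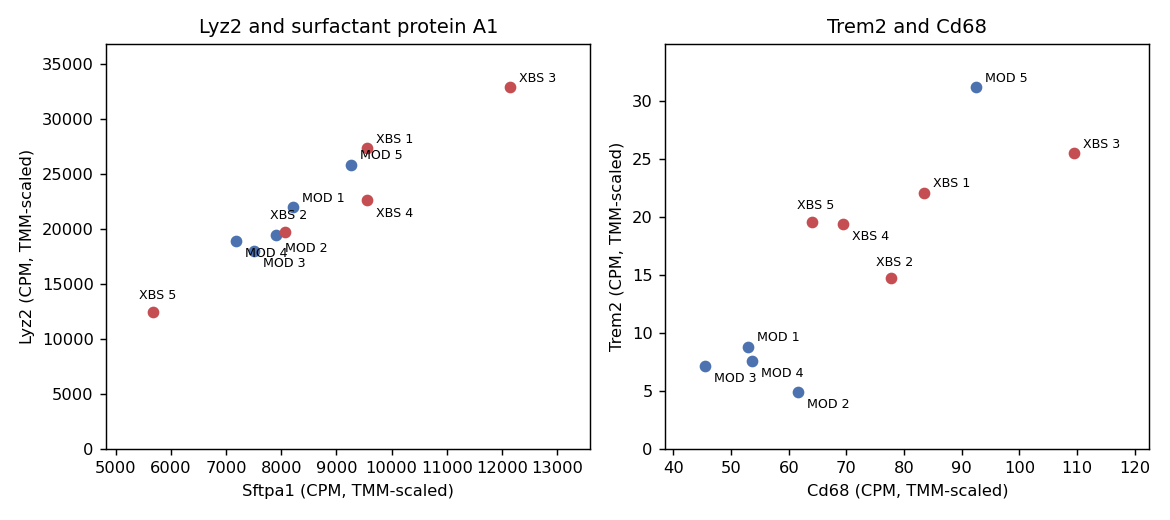
Lyz2 against Sftpa1 (left) and Trem2 against Cd68 (right) in the 10 libraries, MOD in blue and XBS in red, in TMM-scaled CPM; the horizontal axes do not start at 0. XBS 5 and XBS 3 are the lowest and highest libraries for both Lyz2 and Sftpa1, and MOD 5 sits with the XBS libraries for Trem2 and Cd68.

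Lyz2 (ENSRNOG00000005825) lies on chromosome 7 from 60335969 to 60341264 of the deposited coordinates; their build is not stated in the labels or headers. Its neighbour Lyc2, a second lysozyme gene on the same chromosome, had 139 to 2003 counts per library, or 0.0517% to 0.751% of the Lyz2 count. The assignment of reads that fit both lysozyme genes is not described in the labels or headers.

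Cd68 and Csf1r are carried by most macrophages and monocytes. Cd68 encodes a lysosomal glycoprotein and stood at 53.0, 61.6, 45.4, 53.6 and 92.4 CPM in MOD 1 to MOD 5 and at 83.5, 77.7, 109, 69.4 and 64.0 CPM in XBS 1 to XBS 5. Each XBS library was above each of MOD 1 to MOD 4, and MOD 5 was above all but XBS 3. The means were 61.2 ± 18.3 and 80.8 ± 17.6 CPM (SD, n = 5), a 1.32-fold difference (log2 fold change 0.40 ± 0.20 SE; edgeR adjusted p = 0.416). Csf1r encodes the receptor of CSF1 and interleukin 34, which keeps macrophages alive. It stood at 213, 309, 240.3, 292 and 258 CPM in MOD and at 274, 283, 350.5, 285 and 286 CPM in XBS. Of the XBS libraries only XBS 3 was above the highest MOD library, MOD 2, and the 1.13-fold difference did not pass (log2 fold change 0.17 ± 0.11 SE; edgeR adjusted p = 0.50). Both genes thus had XBS libraries above the MOD mean in 5 of 5 cases without separating the groups.

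Cd68 and Csf1r followed different genes. The most like Cd68 were Siglec1, the sialic acid receptor CD169 of resident macrophages (r = 0.973, rho = 0.988), Otulinl (r = 0.971, rho = 0.976) and Ctss, the lysosomal protease cathepsin S (r = 0.969, rho = 0.927). Siglec1 itself had 7.76 to 9.73 CPM in MOD 1 to MOD 4 and 26.1 CPM in MOD 5, against 15.4 to 36.5 CPM in XBS (adjusted p = 0.371). The most like Csf1r were Arl6ip1 (r = 0.932, rho = 0.758), the actin regulator Cap1 (r = 0.93, rho = 0.952) and the protease gene Ctsf (r = 0.917, rho = 0.83). Csf1r had r = 0.898 with the mean level of 13 monocyte markers, with which Cd68 had r = 0.324. The r of Cd68 with Csf1r was 0.561, and 0.119 without MOD 3 and XBS 3, the libraries farthest from the median of Cd68.

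The genes around the CSF1 and GM-CSF receptors gave 0 rises and 0 falls among 13 tested (background 0.0279% higher and 0.0489% lower), with 8 positive and a median log2 fold change of 0.29. At an unadjusted p under 0.05, 6 of the 13 were higher and 1 lower, where 13.2% of all genes tested reached that level in either direction. Spi1, which encodes PU.1, the lineage factor of macrophages, averaged 74.5 ± 7.07 CPM over the MOD and 97.8 ± 16.0 CPM over the XBS libraries (SD, n = 5), a 1.31-fold difference with adjusted p = 0.209. Inpp5d, the phosphatase SHIP1, was 1.20-fold higher (adjusted p = 0.264) and Cebpb, a transcription factor of myeloid and many other cells, 1.33-fold lower (adjusted p = 0.267). The ligand Csf1 had 35.3 ± 5.74 and 43.3 ± 3.15 CPM, and the other ligand of the receptor, Il34, 36.3 ± 4.81 and 33.8 ± 3.62 CPM (SD, n = 5). Neither passed by edgeR (adjusted p = 0.309 and 0.694). Without MOD 5, 1 gene of the list passed, Irf8, a factor of monocytes and dendritic cells, at 71.3 to 84.8 CPM in MOD 1 to MOD 4, 168 CPM in MOD 5 and 124 to 154 CPM in XBS (1.81-fold higher without MOD 5, adjusted p = 0.0106; 1.47-fold and 0.334 with it).

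Of the scavenger receptors among the members, Mrc1 did not pass the test and Marco was too low to test. Mrc1 encodes the mannose receptor CD206, which takes up glycoproteins and microbes. It stood at 242.5, 215, 229, 251.5 and 249 CPM in MOD and at 274, 209, 327, 196 and 211.5 CPM in XBS. The XBS values reached above and below the whole MOD range, so that the SD was 15.3 CPM in MOD and 55.6 CPM in XBS around nearly equal means of 237 and 243.5 CPM (1.03-fold; log2 fold change 0.04 ± 0.13 SE; edgeR adjusted p = 0.923). The genes most like Mrc1 were Mocs1, an enzyme of molybdenum cofactor synthesis (r = 0.901, rho = 0.855), Apip (r = 0.863, rho = 0.879) and Mertk, a receptor for apoptotic cells (r = 0.861, rho = 0.794). Against the mean of the alveolar macrophage markers Mrc1 had r = 0.78 but rho = 0.358, and r = 0.895 for deviations from the group means. The lower rho goes with an r that leans on the most extreme libraries.

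Marco, a collagen-like scavenger receptor that is a defining protein of alveolar macrophages, had 4 counts in all 10 libraries together, 1 in MOD 5 and 3 in XBS 4. That is at or under the floor of 3 counts per library (0.19 to 0.247 CPM, counting error only), so the groups could not be compared. The row named Marco (ENSRNOG00000049303) spans 85115201 to 85135859 of chromosome 16, while RefSeq places Marco on chromosome 13 of the GRCr8 assembly; the other 9 members lie on the same chromosome in both. No level of Marco in the lung was taken from this row.

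Of the wider list of scavenger receptors and lectins, 17 of 20 were tested. Of these 0 rose and 0 fell (all genes, 0.0279% and 0.0489%), and 13 had positive fold changes (median log2 fold change 0.18). At an unadjusted p under 0.05, 7 were higher and 0 lower, where 13.2% of all genes reached that level in either direction. Clec4a3, a C-type lectin, was 1.5-fold higher in XBS (26.4 ± 5.27 and 39.6 ± 8.11 CPM, SD, n = 5; adjusted p = 0.209), Stab1, which clears modified lipoproteins, 1.27-fold (adjusted p = 0.278) and the inhibitory lectin Clec12a 1.33-fold (adjusted p = 0.306).

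The lipid genes of the alveolar macrophage, Pparg and Fabp4, were low in whole lung. Pparg stood at 27.7, 19.2, 18.9, 26.5 and 22.5 CPM in MOD and at 22.5, 21.9, 31.3, 21.7 and 19.1 CPM in XBS, and only XBS 3 lay above the MOD range. Its fold was 1.01 (log2 fold change 0.02 ± 0.15 SE; edgeR adjusted p = 0.964). Fabp4 encodes a fatty acid carrier of macrophages, capillary endothelium and fat cells. It stood at 8.17, 6.70, 4.39, 9.51 and 10.4 CPM in MOD and at 7.73, 4.66, 13.5, 7.46 and 21.4 CPM in XBS. Of the XBS values, 3 lay within the MOD range, and the 1.40-fold difference came with an SE of 0.38 around a log2 fold change of 0.48 (edgeR adjusted p = 0.592). Without XBS 5 that log2 fold change was 0.09.

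For Fabp4, adipocyte and endothelial markers were set beside the values. Over the 10 libraries Fabp4 had r = 0.778 with the mean of 6 tested adipocyte markers and -0.282 with that of 12 capillary endothelial markers. Adipoq, the defining hormone of fat cells, stayed under 1 CPM in every library, from 0.0673 to 0.951 CPM, and Ucp1 was at 0 in all. Plin4, a lipid droplet protein, was highest in XBS 5 at 8.18 CPM, against 0.471 to 3.10 CPM in the others. Other adipocyte markers peaked elsewhere: Cfd in MOD 5 at 16.5 CPM (XBS 5, 13.3 CPM) and Retn in XBS 3 at 6.94 CPM (XBS 5, 4.3 CPM). The summed level of the adipocyte markers was 78.8 to 115.5 CPM in MOD and 71.7 to 91.9 CPM in XBS, with 91.6 CPM in XBS 5. Lipe made up most of this sum, with a mean of 74.4 CPM over the MOD libraries and 58.9 CPM over the XBS libraries. The sum itself averaged 95.4 and 84.0 CPM. It thus says little about the other adipocyte markers. The part of fat cells in the Fabp4 value of XBS 5 was not tested.

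Partners and targets of PPARG gave no call. Of 23 tested, 0 rose, 0 fell, 12 were positive and 11 negative, with a median log2 fold change of 0.03. At an unadjusted p under 0.05, 0 were higher and 1 lower (all genes, 13.2% in either direction). The smallest p-values were those of Pdk4, a brake on glucose oxidation that also answers glucocorticoids (MOD 18.6 ± 3.00 CPM, XBS 9.78 ± 6.12 CPM, SD, n = 5 each; adjusted p = 0.335), of the coactivator gene Ppargc1a (1.38-fold lower, adjusted p = 0.425) and of Fabp5, the second macrophage fatty acid carrier (1.29-fold higher, adjusted p = 0.426). The receptor partner Rxra (1.06-fold lower), the lipid droplet gene Plin2 (1.05-fold higher) and the fatty acid transporter Cd36 (1.02-fold lower) had adjusted p = 0.78, 0.814 and 0.939. The genes most like Pparg were Derl1 (r = 0.901, rho = 0.697), Etfb, of mitochondrial electron transfer (r = 0.898, rho = 0.697), and Cox5a, a cytochrome oxidase subunit (r = 0.876, rho = 0.842). Those most like Fabp4 were Rab30 (r = 0.902, rho = 0.77), Xpnpep1 (r = 0.901, rho = 0.745) and Pbdc1 (r = 0.89, rho = 0.867).

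Gpnmb and Trem2, the genes of lipid-associated macrophages, spread 3.07-fold and 6.37-fold between their lowest and highest libraries, and Fabp4 4.87-fold; the other tested members spread 1.62-fold to 2.64-fold. Gpnmb encodes a transmembrane glycoprotein of lysosomes and phagosomes that macrophages make under lysosomal load. Trem2 encodes a receptor for lipids and lipoproteins that signals through the adaptor DAP12. Their r was 0.778 with each other (rho = 0.758), and Cd68 had r = 0.809 with Trem2 (rho = 0.855) and 0.755 with Gpnmb (rho = 0.612). For deviations from the group means these were 0.846, 0.71 and 0.785. Without the 2 libraries farthest from the median of the first gene they were 0.649, 0.785 and 0.623. Those libraries were MOD 5 and XBS 3 for Gpnmb with Trem2, and MOD 3 and XBS 3 for the pairs of Cd68. MOD 5, the highest library for both Gpnmb and Trem2, thus stayed in the pairs of Cd68. Of all 36 pairs among the 9 members, 35 had a positive r, with a median of 0.425.

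Because these 3 genes made up the 3 most correlated member pairs, the RefSeq sequence before their transcription starts is shown (build GRCr8, 5′ to 3′ on the strand of the gene, 250 bases upstream, of which 18 nearest to the Trem2 start are left out because its gene record covers them). Capitals mark GAGGAA, the core of the box bound by PU.1, TCACATGA, the M-box bound by MITF and its relatives, and TGANTCA, the AP-1 element, each on either strand.
Cd68, chr10:54882442-54882691, minus strand: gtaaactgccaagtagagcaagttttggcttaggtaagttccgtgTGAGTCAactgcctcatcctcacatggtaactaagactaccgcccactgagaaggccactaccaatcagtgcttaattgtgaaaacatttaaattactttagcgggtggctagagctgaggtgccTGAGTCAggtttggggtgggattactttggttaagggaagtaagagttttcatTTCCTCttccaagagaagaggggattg
Gpnmb, chr4:79340878-79341127, plus strand: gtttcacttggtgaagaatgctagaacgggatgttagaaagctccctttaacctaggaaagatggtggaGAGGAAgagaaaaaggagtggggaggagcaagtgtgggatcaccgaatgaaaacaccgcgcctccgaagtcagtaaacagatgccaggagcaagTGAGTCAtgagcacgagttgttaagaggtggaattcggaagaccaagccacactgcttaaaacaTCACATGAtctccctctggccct
Trem2, chr9:20151798-20152029, minus strand: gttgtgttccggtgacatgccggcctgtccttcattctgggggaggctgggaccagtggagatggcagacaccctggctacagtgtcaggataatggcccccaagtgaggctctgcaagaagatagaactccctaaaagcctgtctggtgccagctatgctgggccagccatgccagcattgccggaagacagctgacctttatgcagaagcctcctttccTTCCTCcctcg
Of these motifs the 3 windows share only the PU box, at -27, -181 and -29 counted from the start. Of the 9 members with a window, Gpnmb alone holds the M-box, at -23, a motif that 0.977% of all 33469 upstream windows of 250 bases hold. Of the same 9 members, 3 hold an AP-1 element (Cd68, Gpnmb and Pparg), as do 6.34% of windows. The related E-box TCACGTGA (0.657% of windows) was in none of the members. Of the 9 members with a window in the table, 8 held the PU box, which is short and occurs in 23.3% of all windows; Chi3l1 did not. The motifs were chosen after the windows had been seen, and a match is a description of letters, not of binding.

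Gpnmb stood at 262.5, 268.5, 273, 318 and 803 CPM in MOD and at 348, 262, 733, 494 and 352.5 CPM in XBS. MOD 5 and XBS 3 stood above the other 8 libraries, 1 in each group, and XBS 2 was at the level of the lowest MOD library, MOD 1. The fold was 1.14 (log2 fold change 0.19 ± 0.37 SE; edgeR adjusted p = 0.852), with 0.64 on the log2 scale without MOD 5 (adjusted p = 0.339) and -0.08 without XBS 3. The genes most like Gpnmb were Capg, an actin-capping protein of macrophages (r = 0.97, rho = 0.964), Sel1l3 (r = 0.959, rho = 0.867) and the lysosomal peptidase Tpp1 (r = 0.953, rho = 0.891). With the mean of the 20 other lipid-associated macrophage genes, Gpnmb had r = 0.891 (rho = 0.842). The deposited row of Gpnmb (ENSRNOG00000008816) spans 78694447 to 78715683 of chromosome 4.

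For Trem2 the call turned on 1 library. It stood at 8.82, 4.90, 7.17, 7.58 and 31.2 CPM in MOD 1 to MOD 5 and at 22.1, 14.7, 25.5, 19.4 and 19.6 CPM in XBS 1 to XBS 5. All 5 XBS libraries were above MOD 1 to MOD 4, while MOD 5 was the highest of all 10. With every library the difference was 1.70-fold and did not pass (11.9 ± 10.9 and 20.2 ± 3.99 CPM, SD, n = 5; log2 fold change 0.76 ± 0.45 SE; edgeR adjusted p = 0.474). Without MOD 5 the remaining MOD libraries averaged 7.12 ± 1.63 CPM (SD, n = 4) and Trem2 was 2.85-fold higher in XBS, past the threshold (log2 fold change 1.51 ± 0.20 SE; edgeR adjusted p = 0.0347; 0.104% of all genes tested passed in that run). Leaving out any other single library gave log2 fold changes of 0.56 to 0.86 and no call. The deposited row of Trem2 (ENSRNOG00000013578) spans 14611561 to 14618013 of chromosome 9.

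**Figure D3:**
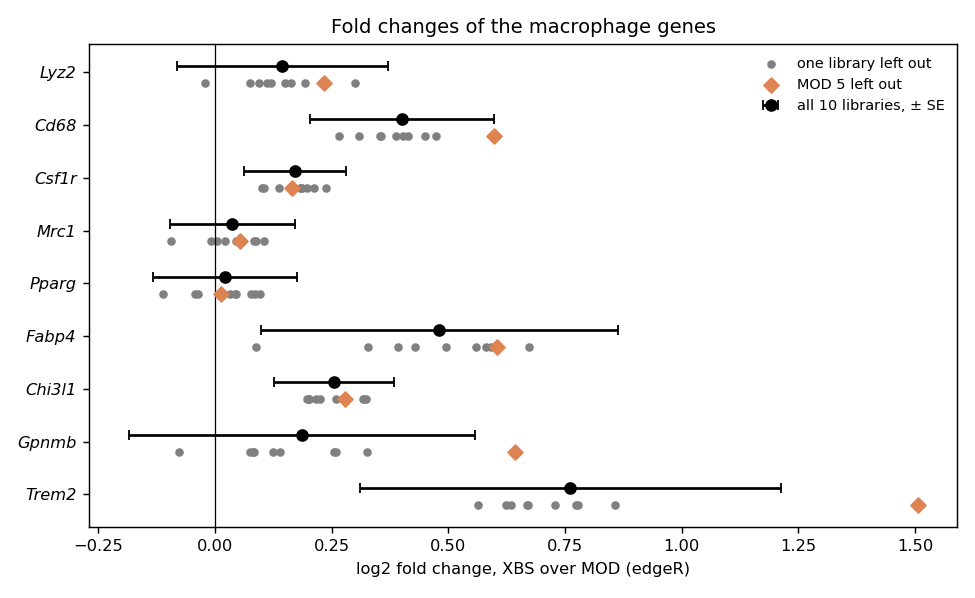
Log2 fold change of XBS over MOD by edgeR for the 9 tested genes with all 10 libraries (black, ± SE) and with each library left out in turn (grey; MOD 5 left out in orange). Leaving out MOD 5 moves Trem2 from 0.76 to 1.51 and Gpnmb from 0.19 to 0.64, while Pparg stays between -0.11 and 0.10 and Mrc1 between -0.09 and 0.11.

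Over the 10 libraries Trem2 was most like P2ry12, a nucleotide receptor of microglia and some macrophages (r = 0.969, rho = 0.927), RT1-Bb, which encodes an MHC class II chain (r = 0.962, rho = 0.964), and Ciita, the master activator of MHC class II (r = 0.957, rho = 0.927). Since these genes were picked for following Trem2 in the same libraries, their levels in MOD 5 are no separate support for its Trem2 value. RT1-Bb had 505.5 CPM in MOD 5 against 256 to 375 CPM in MOD 1 to MOD 4 and 401 to 504 CPM in XBS. Ciita had 90.0 CPM in MOD 5 against 45.9 to 50.6 and 63.7 to 85.8 CPM. Apoe, the gene of an apolipoprotein that TREM2 binds, was named after its values were seen. It had 1708 CPM in MOD 5, 2.48 times the next library, and 258 to 689 CPM in the other 9. Trem2 had r = 0.902 (rho = 0.855) with the mean of 11 dendritic cell markers, whose summed level was 189 to 246 CPM in MOD and 226 to 260.0 CPM in XBS, with none at 0. With lipid-associated macrophage genes Trem2 had r = 0.722 (rho = 0.818). With alveolar and interstitial macrophage markers it had r = 0.641 (rho = 0.867) and r = 0.607 (rho = 0.612). It had r = -0.721 with the capillary endothelial markers, whose summed level was 4150.2 to 5898 CPM in MOD and 2766 to 4327.5 CPM in XBS. The part of any of these cell types in the Trem2 values was not tested. Divided by Cd68 in the same library, Trem2 was 0.0795 to 0.166 in MOD 1 to MOD 4, 0.338 in MOD 5 and 0.189 to 0.306 in XBS, so MOD 1 to MOD 4 were again below and MOD 5 again above all XBS libraries. Divided by Gpnmb, which was also high in MOD 5, Trem2 was 0.0183 to 0.0336 in MOD 1 to MOD 4, 0.0389 in MOD 5 and 0.0348 to 0.0635 in XBS, so MOD 5 lay below all XBS libraries but XBS 3.

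Of 15 tested genes of TREM2 and DAP12 signalling, 0 rose and 0 fell (all genes, 0.0279% and 0.0489%). Fold changes were positive for 10 (median log2 fold change 0.21). At an unadjusted p under 0.05, 6 were higher and 0 lower, where 13.2% of all genes reached that level in either direction. Tyrobp, which encodes DAP12, had 73.4 to 87.0 CPM in MOD and 84.6 to 143 CPM in XBS, overlapping only through XBS 5 and MOD 5 (1.46-fold, edgeR adjusted p = 0.166; 0.0252 by DESeq2). Syk, the kinase that DAP12 recruits, was 1.29-fold higher (adjusted p = 0.197) and the adaptor gene Lat2 1.38-fold (adjusted p = 0.229). Of the 20 other lipid-associated macrophage genes, 0 rose and 0 fell, and 13 had positive fold changes. Against the same 13.2%, 5 of the 20 were higher and 0 lower at an unadjusted p under 0.05. Lipa, the lysosomal acid lipase, had 138.5 to 162 CPM in MOD and 163 to 242 CPM in XBS, groups that did not overlap (1.31-fold, adjusted p = 0.209), as for 1.61% of all genes in that direction. Grn, which encodes progranulin, was 1.20-fold higher (adjusted p = 0.318).

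Chi3l1 encodes a chitinase-like protein without enzyme activity, known in people as the asthma-associated YKL-40 and made by macrophages, neutrophils and epithelium. It stood at 150.5, 179, 159, 207 and 188 CPM in MOD and at 170.1, 173, 240.3, 244 and 228 CPM in XBS. XBS 3, XBS 4 and XBS 5 were above every MOD library, and XBS 1 and XBS 2 lay inside the MOD range (1.19-fold; log2 fold change 0.25 ± 0.13 SE; edgeR adjusted p = 0.42). The genes most like it were Rab42 (r = 0.934, rho = 0.879), Tlr2, a receptor for bacterial lipoproteins (r = 0.924, rho = 0.927), and LOC100909700 (r = 0.901, rho = 0.915). Against the mean of the interstitial macrophage markers it had r = 0.896, against alveolar type 2 markers -0.0959 and against 14 neutrophil markers 0.0667.

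**Figure D4:**
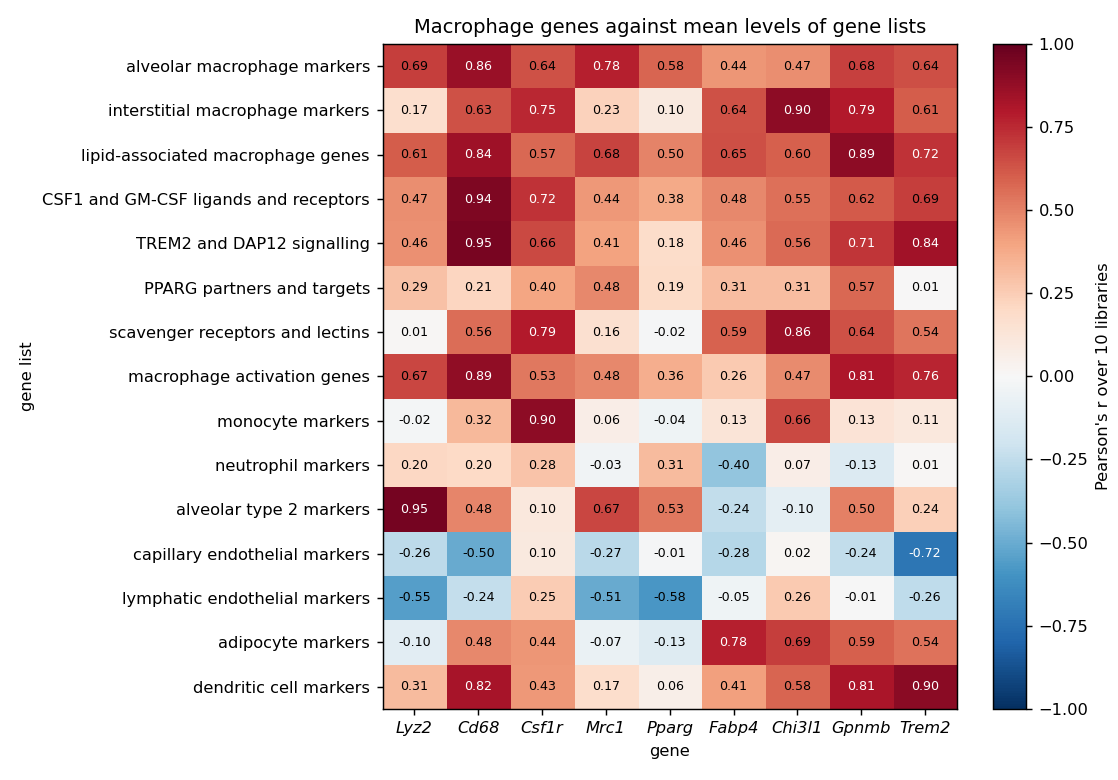
Pearson's r over the 10 libraries between log2 CPM of each tested gene (columns) and the mean level of each gene list (rows), members left out of the lists. Lyz2 is highest against alveolar type 2 markers (0.95), Chi3l1 and Csf1r against interstitial macrophage and monocyte markers (both 0.90), Cd68 against TREM2 and DAP12 signalling (0.95) and Trem2 against dendritic cell markers (0.90).

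The members differed in the lists they ran closest to. Marker lists of the macrophage classes gave 0 rises and 0 falls among 18 alveolar and 18 interstitial macrophage genes (median log2 fold change 0.17 and 0.24). At an unadjusted p under 0.05, 3 alveolar genes were higher and 0 lower, and 5 interstitial genes were higher and 1 lower. That level was reached by 13.2% of all genes tested, in either direction. In the alveolar list the integrin gene Itgax was 1.58-fold higher (adjusted p = 0.162), Atp6v0d2, a proton pump subunit, 1.89-fold (adjusted p = 0.361) and Siglec1 1.78-fold (adjusted p = 0.371). In the interstitial list C1qb, Tmem176a and C1qc were 1.43-fold, 1.45-fold and 1.41-fold higher (adjusted p = 0.154, 0.164 and 0.209). By DESeq2 1 of the alveolar genes (Itgax) and 2 of the interstitial genes (C1qb and Tmem176a) passed, where 2.22% of all genes did. The summed level was 1721 to 1839 CPM in MOD and 1563 to 2174 CPM in XBS for the alveolar list. For the interstitial list it was 3334 to 4735 and 3531 to 4743 CPM, with means of 3755.6 and 3978.3 CPM. Most of the interstitial sum was Cd74, at means of 1928 CPM in MOD and 2206 CPM in XBS, and Selenop, at 937.6 and 804.6 CPM. Cd74 was at 2757.2 CPM in MOD 5. The C1q genes and other low genes of that list thus hardly count in its sum. Among 15 genes of macrophage activation 1 rose, Irf5, a factor that favours inflammatory activation, from 30.8 ± 3.36 to 49.6 ± 4.02 CPM (SD, n = 5; 1.61-fold, edgeR adjusted p = 0.0302; background 0.0279%). At an unadjusted p under 0.05, 4 of the 15 were higher and 1 lower (all genes, 13.2% in either direction). Of the 10 runs without a single library, Irf5 passed in those without MOD 1, MOD 5, XBS 4 or XBS 5 and in no other. Il1b was 1.64-fold higher (edgeR adjusted p = 0.162) and Socs3, an inhibitor of cytokine signalling, 1.40-fold lower (edgeR adjusted p = 0.228). By DESeq2 2 of the 15 passed, Irf5 (adjusted p = 3.51e-08) and Il1b (adjusted p = 0.0173), where 2.22% of all genes did.

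**Figure D5:**
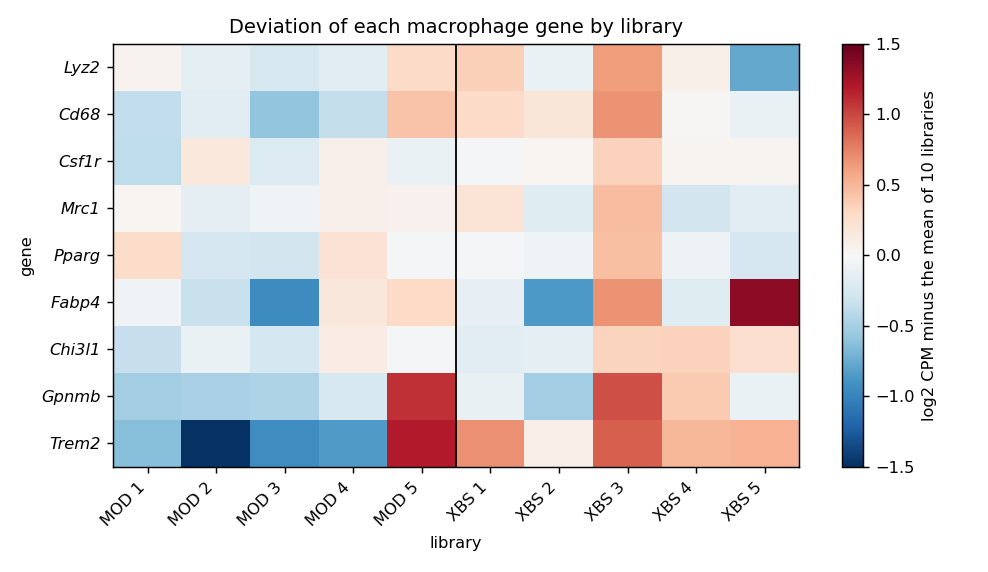
Log2 CPM of each tested gene minus its mean over the 10 libraries, by library, MOD left and XBS right of the line. MOD 5 and XBS 3 are high for Gpnmb and Trem2, XBS 5 is low for Lyz2 and high for Fabp4, and MOD 1 to MOD 4 are low for Trem2.

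Lists of other cells of the lung gave 0 rises and 0 falls each by edgeR. At an unadjusted p under 0.05, which 13.2% of all genes reached, 2 neutrophil, 2 dendritic cell and 3 monocyte markers were higher, and 6 capillary endothelial, 1 monocyte, 1 lymphatic endothelial and 1 adipocyte marker were lower. Lists share genes, and genes of a list are not independent of each other. Neutrophil markers were positive in 13 of 14 tested, with a median log2 fold change of 0.43 that was 0.03 without XBS 2 and XBS 3, and their summed level was 712 to 1016 CPM in MOD and 792 to 1449 CPM in XBS. Mpo, Elane and Ltf, genes of neutrophil granules, had under 10 counts in every library. Other genes of the neutrophil list were present, among them Lcn2 at means of 340.1 CPM in MOD and 558.0 CPM in XBS. Mmp8 had 22.8 and 34.4 CPM, Ngp 9.54 and 13.4 CPM and Camp 4.34 and 5.22 CPM. Capillary endothelial markers were positive in 0 of 12 (median -0.34), monocyte markers in 10 of 13 (0.30), dendritic cell markers in 7 of 11 (0.23), alveolar type 2 markers in 2 of 9 (-0.04), lymphatic endothelial markers in 2 of 7 (-0.03) and adipocyte markers in 5 of 6 (0.19). The part of these cell types in the member values was not tested.

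By library, XBS 3 held the highest value for 5 of the 9 tested members and was among the 2 highest for all 9. MOD 5 held the highest value for Gpnmb and Trem2. MOD 3 was the lowest for 3 members, more than any other library. Averaged over the 9 members, the log2 deviation was 0.599 in XBS 3 and 0.355 in MOD 5, and between -0.437 and 0.121 in the other 8 libraries.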

How the data were processed

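Rat lung messenger RNA libraries, 5 MOD and 5 XBS by their titles, were compared. Per the file headers, the deposited table gives read counts per gene and FPKM; the aligner, counter, rat build and strand setting are not stated there or in the labels, and the builds in the submitters' processing notes are human and mouse. Counts were tested with edgeR 4.0.16 (R 4.3.3): filterByExpr (minimum count 10, minimum total 15), TMM scaling, robust quasi-likelihood test, Benjamini-Hochberg adjustment over 14320 genes, threshold 0.05. DESeq2 1.42.0 and limma 3.58.1 were alternatives, with other scalings and filters, a replicate block and left-out libraries. Tested genes held 99.921% of counts. Between-gene levels are the authors' FPKM; correlations use log2 CPM (prior count 2). The steps were tested on simulated data.

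The members and lists were chosen with earlier results of these data known. Named genes are the members, list genes past the threshold or among the 3 smallest p of a list, and the 3 genes most correlated with each member. Csf1, Il34, Rxra, Plin2 and Cd36 were added for their roles. Irf8, Apoe, Lyc2, Adipoq, Plin4, Cfd, Ucp1, Mpo, Elane and Ltf were added after their values were seen. So were Mmp8, Ngp, Camp, Cd74, Selenop, Sftpb and Sftpc. The row for Cd36 was matched by RefSeq gene ID. Intervals and floors cover counting error only.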

Additional observations from a re-analysis of the deposited data

Results flagged for a closer look

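In 6 of 20 groups, MOD and XBS of each member, 1 library of 5 lay far from its 4 companions. The criterion was Dixon's ratio, the gap to the nearest library over the range, above 0.71. These groups were both of Marco and 1 each of 4 of the 9 tested members. About 1 group in 20 meets it for independent, normal values. CPM of genes that vary together are not such values, so the rate is only a guide. Trem2 in MOD 5 was at 31.2 CPM, with 4.90 to 8.82 CPM in MOD 1 to MOD 4. Gpnmb in the same library was at 803 CPM, with 262.5 to 318 CPM in the others of its group. In XBS 3, Csf1r was at 350.5 CPM, with 274 to 286 CPM in the other XBS libraries. Pparg was at 31.3 CPM in XBS 3, with 19.1 to 22.5 CPM in the others. For Marco, MOD 5 at 0.0708 CPM and XBS 4 at 0.19 CPM differed from companions at 0 on 1 and 3 counts; beside 4 zeros any count meets the criterion, so these carry no information.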

How the results depend on the processing

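No member passed by DESeq2, voom, other scalings or filters, or a looser adjusted p of 0.1; leaving out single libraries gave 0 to 1 members (Trem2 without MOD 5, log2 fold change 1.51). Of 171 comparisons of a member with an alternative, 160 kept direction and call, 10 reversed and 1 gained the call. Reversals, by log2 fold change without single libraries, reached -0.0213 to 0.300 for Lyz2, -0.0938 to 0.106 for Mrc1 (-0.00915 without XBS 1), -0.111 to 0.0974 for Pparg (-0.0374 without MOD 2, -0.0433 without MOD 3) and -0.0774 to 0.643 for Gpnmb. Without XBS 2 and XBS 3 the values were -0.00219 for Lyz2, -0.0631 for Mrc1 and -0.124 for Pparg. The cause was not tested. Over all genes 11 passed, against 329 by DESeq2, 67 by voom, 67 at an adjusted p under 0.1, 4 to 15 without single libraries and 3 without XBS 2 and XBS 3. Without MOD 4 and XBS 5 edgeR called 0, with 1340 at an unadjusted p under 0.05. Same-numbered MOD and XBS libraries had deviations correlated from -0.125 to 0.329, and 2 of 10 libraries correlated best with their own number, so the numbers were not taken as pairs; fitting the number as a replicate block, edgeR called 1 gene and 0 members. The median correlation among members was 0.425, and 0.394 for deviations from group means. The row named Marco, at 0 to 3 counts and on another chromosome than in RefSeq, gave no level of Marco. Depth limits Trem2 and Fabp4, with as few as 68 and 60 counts.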

Other observations

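Lyc2, the lysozyme gene beside Lyz2, was at 148 CPM in XBS 2 and 70.9 CPM in XBS 5, and no higher than 28.1 CPM in the other 8 libraries. Its count was 0.751% and 0.569% of that of Lyz2 in those 2 libraries and 0.0517% to 0.0902% elsewhere.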
